A study of Mus musculus with 6 samples.

Results

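DNA methyltransferases, the cofactors and TET dioxygenases that set the level of DNA methylation, and the EZH methyltransferases of the Polycomb system were examined in mouse knee chondrocytes. The 10 genes were taken by name from the deposited expression table, which lists 22032 genes, and all 10 had a mean of at least 1 TPM. They are *Dnmt1*, *Dnmt3a*, *Dnmt3b*, *Uhrf1*, *Hells*, *Tet1*, *Tet2*, *Tet3*, *Ezh1* and *Ezh2*. RNA-seq was available for 3 samples of embryonic knee cartilage and 3 samples of adult knee cartilage. In both stages, chondrocytes had been sorted as LIN-ALP-BMPR1B+ cells, which removes blood, endothelial and alkaline phosphatase positive cells and keeps cells that carry a bone morphogenetic protein receptor. The embryonic cells came from E16.5 embryos, for which the labels write 16.5 in weeks, and the adult cells from 2 month old male B6 mice. The sex and strain of the embryos are not given. No transgene or treatment is named for either stage. The number of animals behind each sample is not given, so the p-values measure only the spread between these samples.

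DNA methylation at CG dinucleotides is copied onto the new strand after each round of replication by DNMT1, which UHRF1 brings to hemimethylated sites and which the remodeler HELLS assists in compacted chromatin. DNMT3A and DNMT3B set new methylation, and TET1, TET2 and TET3 oxidize methylcytosine as the first step of its removal. EZH2 and its paralog EZH1 are alternative catalytic subunits of Polycomb repressive complex 2 (PRC2), which places the repressive mark H3K27me3. EZH2 is the form known from dividing cells and EZH1 the form known from resting ones, and in cartilage both are known to act on growth plate chondrocytes.

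Values are given in TPM, the number of a gene's transcripts per 1000000 transcripts after division by transcript length, so that levels can be set against each other between genes. TPM keeps no sequencing depth. All 10 chondrocyte markers of the list used were above 0 in all 6 samples. They summed to 22909 to 24495 TPM in the embryonic and 9033 to 12065 TPM in the adult samples, most of the embryonic sum being *Col2a1*. These markers did not move together, as 6 were lower in adult cartilage, 2 (*Sox9* and *Comp*) were higher and 2 were not called. The median log2 fold change over all tested genes was 0.16, and it was 0.03 after median-of-ratios scaling and 0.25 when TPM was rescaled without the 20 highest genes. Other cell types also moved with stage. Markers of fibroblasts and tendon summed to 5562 to 6144 TPM in the embryonic and 778 to 1106 TPM in the adult samples, most of the embryonic sum being *Col3a1*, and of the 8 genes 5 were lower in adult cartilage, 1 (*Thbs4*) was higher and 2 were not called. Osteoblast markers did not move together. Their sum was 4928 to 6014 TPM and 568 to 1121 TPM, but the embryonic sum was nearly all *Col1a1*, and of the 8 genes 4 were higher in adult cartilage and 2 lower. *Ibsp*, one of those that rose, was at 0.148, 29.6 and 5.07 TPM and at 316, 235 and 308 TPM. Leukocyte markers summed to 0.978 to 4.02 TPM in the embryonic samples against 90.1, 1.92 and 53.5 TPM in adult cartilage. *Cd3e* was at 0 throughout. Adult replicate 2 had leukocyte markers as low as the embryonic samples. The part of the other cells in the results below was not tested. Fewer cells of a type and less RNA per cell cannot be told apart in such bulk samples.

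The adult samples differed from the embryonic samples in 9 of the 10 genes at a limma adjusted p under 0.05, against 45.3% of the 13125 genes tested. Of the 10, 8 were lower in the adult samples, against 21.4% of all tested genes, and only *Ezh1* was higher, against 23.9%. *Dnmt3b* did not pass. The median log2 fold change of the 10 genes was -1.57. In 9 of the 10 the values of the stages did not overlap, which was also true of 56.5% of all tested genes. The counts of lower and higher genes were the same under all 3 other scalings.

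**Figure D1:**
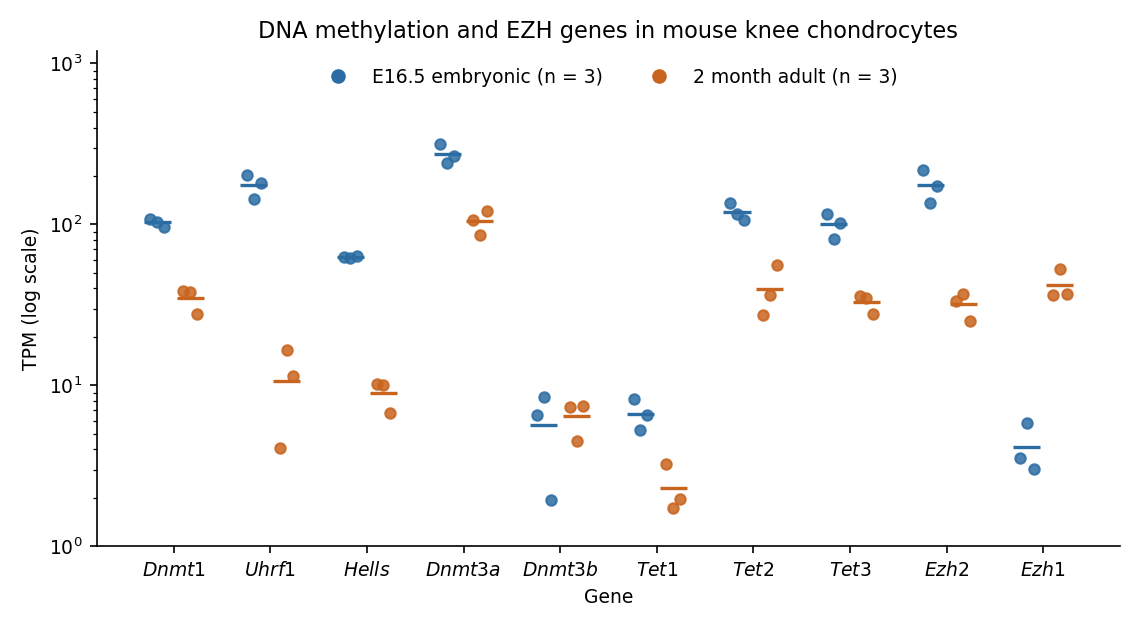
TPM of the 10 genes on a log axis, with a point for each sample and a bar at the mean of the 3 samples of a stage. Embryonic points lie above adult points in 8 genes, below them in *Ezh1*, and among them in *Dnmt3b*.

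The maintenance machinery was lower in adult chondrocytes, with larger log2 fold changes for *Uhrf1* and *Hells* than for *Dnmt1*, although the difference between them was not tested. *Uhrf1*, the reader of hemimethylated DNA (chr17:56303321-56323486, plus strand, GRCm38), was at 202, 143 and 182 TPM in embryonic cartilage against 4.08, 16.5 and 11.4 TPM in adult cartilage. The highest adult sample stayed far below the lowest embryonic one, while the adult samples differed from each other more on the log2 scale (SD 0.92) than those of any other gene of the group. The log2 fold change was -4.08 (standard error, SE, 0.405, limma adjusted p = 9.4e-05), and only 1.17% of all tested genes fell as far. A stretch of 1590 bases of the *Uhrf1* transcript is at least 95% identical to the gene *Gm5648*, which was not analysed here, so reads of the pair may have been mixed.

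*Hells*, the remodeler of the SNF2 family (chr19:38930915-38971051, plus strand), was at 63.0, 61.8 and 63.6 TPM in embryonic cartilage against 10.2, 10.04 and 6.78 TPM in adult cartilage. It was the most even of the 10 genes within the embryonic stage, at 62.8 ± 0.929 TPM (SD, n = 3). The log2 fold change was -2.69 (SE 0.23, limma adjusted p = 4.2e-05). Stretches of 116 to 127 bases of its transcript match *Tango2*, *Tbc1d7* and *Wdr33*. *Dnmt1* (chr9:20907209-20959888, minus strand) was at 109, 103 and 96.6 TPM and at 38.5, 37.8 and 27.8 TPM. Its embryonic and adult samples were well apart, with a log2 fold change of -1.56 (SE 0.176, adjusted p = 1.9e-04 by limma). *Cdca7*, which encodes the zinc finger partner that recruits HELLS, was at 28.7, 21.0 and 27.9 TPM in embryonic and 33.9, 15.5 and 12.7 TPM in adult cartilage, and at a log2 fold change of -0.42 it missed the threshold (limma adjusted p = 0.367), but passed it without adult replicate 1 (-0.82, adjusted p = 0.0454).

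*Uhrf1*, *Hells*, *Dnmt1* and *Ezh2* each hold a short run of letters near an annotated start. It reads TTCCCGC in *Uhrf1* and *Hells* and TTGGCGC in *Dnmt1* and *Ezh2*. RefSeq gives windows of 300 bases, 250 before and 50 after an annotated start, on GRCm38.p6, and all 10 genes were matched to at least 1 window. The windows were searched on both strands for the letters TTCCCGC or TTGGCGC, cores of the site bound by E2F factors, which drive genes of the G1/S transition. A window of *Dnmt1*, *Uhrf1*, *Hells* and *Ezh2* held 1 match each, and no window of the other 6 genes held any. *Dnmt1* has 3 windows and *Uhrf1* 2, of which 1 each held the match. The letters occur in 6.81% of all 32851 windows and in at least 1 window of 14.02% of the 10292 tested genes with a window. A match is a string of letters and was not shown to be bound. The matched windows are printed 5′ to 3′ with the matched letters in capitals, followed by that of *Ezh1*, which has none, to show how the starts of the EZH paralogs differ.
Dnmt1, chr9:20952574-20952873, minus strand: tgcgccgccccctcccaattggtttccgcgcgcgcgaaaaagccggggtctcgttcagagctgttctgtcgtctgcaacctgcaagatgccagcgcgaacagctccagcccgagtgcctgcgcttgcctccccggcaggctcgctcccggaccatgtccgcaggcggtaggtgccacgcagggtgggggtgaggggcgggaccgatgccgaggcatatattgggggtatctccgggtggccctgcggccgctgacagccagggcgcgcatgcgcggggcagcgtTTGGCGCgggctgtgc
Uhrf1, chr17:56303087-56303386, plus strand: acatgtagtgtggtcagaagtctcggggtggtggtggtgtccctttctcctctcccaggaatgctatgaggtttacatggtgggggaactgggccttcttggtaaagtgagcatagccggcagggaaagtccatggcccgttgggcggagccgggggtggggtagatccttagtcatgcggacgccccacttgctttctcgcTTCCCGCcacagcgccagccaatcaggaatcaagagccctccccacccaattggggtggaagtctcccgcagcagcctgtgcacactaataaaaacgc
Hells, chr19:38930740-38931039, plus strand: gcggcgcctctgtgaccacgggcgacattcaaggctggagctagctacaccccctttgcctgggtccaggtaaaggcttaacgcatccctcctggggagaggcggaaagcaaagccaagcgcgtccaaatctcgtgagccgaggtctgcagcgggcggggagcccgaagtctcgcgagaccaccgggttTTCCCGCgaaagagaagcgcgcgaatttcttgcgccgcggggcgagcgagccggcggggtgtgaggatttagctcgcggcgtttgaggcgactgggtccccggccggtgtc
Ezh2, chr6:47594981-47595280, minus strand: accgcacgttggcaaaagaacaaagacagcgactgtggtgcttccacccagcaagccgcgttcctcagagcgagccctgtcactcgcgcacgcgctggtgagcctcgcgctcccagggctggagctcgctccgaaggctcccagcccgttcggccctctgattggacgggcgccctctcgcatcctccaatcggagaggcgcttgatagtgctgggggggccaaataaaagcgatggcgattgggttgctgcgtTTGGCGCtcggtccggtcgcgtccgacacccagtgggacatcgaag
Ezh1, chr11:101226414-101226713, minus strand: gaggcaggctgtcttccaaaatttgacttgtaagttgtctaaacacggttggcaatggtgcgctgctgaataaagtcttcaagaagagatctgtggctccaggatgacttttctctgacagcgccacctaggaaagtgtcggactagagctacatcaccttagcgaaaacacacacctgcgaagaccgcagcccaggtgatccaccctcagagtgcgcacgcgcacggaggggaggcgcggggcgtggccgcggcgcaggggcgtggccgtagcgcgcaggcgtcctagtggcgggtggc

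Counted from 1 at the 5′ end, the match lay at bases 285 to 291 in *Dnmt1*, 203 to 209 in *Uhrf1*, 190 to 196 in *Hells* and 255 to 261 in *Ezh2*. The window of *Ezh2* also held 3 matches to the letters CCAAT over both strands, those printed for *Dnmt1* and *Uhrf1* 3 each, and those of *Hells* and *Ezh1* none, where 37.4% of all windows held at least 1. CG dinucleotides numbered 33 in the printed *Dnmt1* window, 12 in that of *Uhrf1*, 34 in *Hells*, 31 in *Ezh2* and 23 in *Ezh1*, against a median of 7 over all windows. Of the 1443 tested genes with the E2F letters, 25.4% were lower and 20.7% higher in adult cartilage at an adjusted p under 0.05, and their median log2 fold change was -0.02. Of the 8849 without them, 19.8% were lower and 24.8% higher, with a median of 0.21.

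Cell cycle genes fell alongside. By the same limma test, 34 of 40 genes of G1/S and of G2 and mitosis were lower in adult cartilage, against 21.4% of all tested genes. The number that were higher was 0, against 23.9% of all tested genes. These 40 genes had a median log2 fold change of -2.55. At an unadjusted p under 0.05 the count was 37 lower and 0 higher. No share over all genes was taken at that threshold, so this count has no background to be read against. *Mki67*, a marker of dividing cells, was at 101, 83.3 and 101 TPM in embryonic cartilage against 2.05, 1.32 and 8.62 TPM in adult cartilage. *Top2a*, which untangles DNA before mitosis, was at 104, 95.7 and 125 TPM and at 5.003, 2.70 and 15.6 TPM. The replication gene *Mcm5* fell by 2.77 on the log2 scale and *Pcna*, the sliding clamp that also brings DNMT1 to replication forks, by 0.58 (limma adjusted p = 1.2e-04 and 0.00788). *E2f1* was at 40.4, 33.9 and 51.9 TPM in embryonic and 17.9, 20.3 and 80.2 TPM in adult cartilage and did not pass (limma adjusted p = 0.528), although without adult replicate 3 it did (adjusted p = 0.0113).

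The adult samples ran in different orders for the median of the G2/M genes and for that of the G1/S genes. The median log2(TPM + 1) of the 20 G2/M genes was 1.57, 1.44 and 3.35 in adult replicates 1, 2 and 3, while that of the 20 G1/S genes was 3.81, 4.11 and 3.70. The single G1/S genes did not share an order. *Mcm5*, *Cdc45* and *E2f1* among them were highest in adult replicate 3. *Gins1* and *Mcm6* were highest in adult replicate 2, and *Mcm4* in adult replicate 1. Adult replicate 3, highest for *Mki67* and *Top2a* but lowest for the G1/S median, was the lowest of the 3 for *Dnmt1*, *Hells* and *Ezh2*. The order of *Ezh2* over the adult samples was that of the G1/S median. *Uhrf1* was highest in adult replicate 2, which had the lowest *Mki67* and the highest G1/S median. These orders rest on single samples and were not tested.

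**Figure D2:**
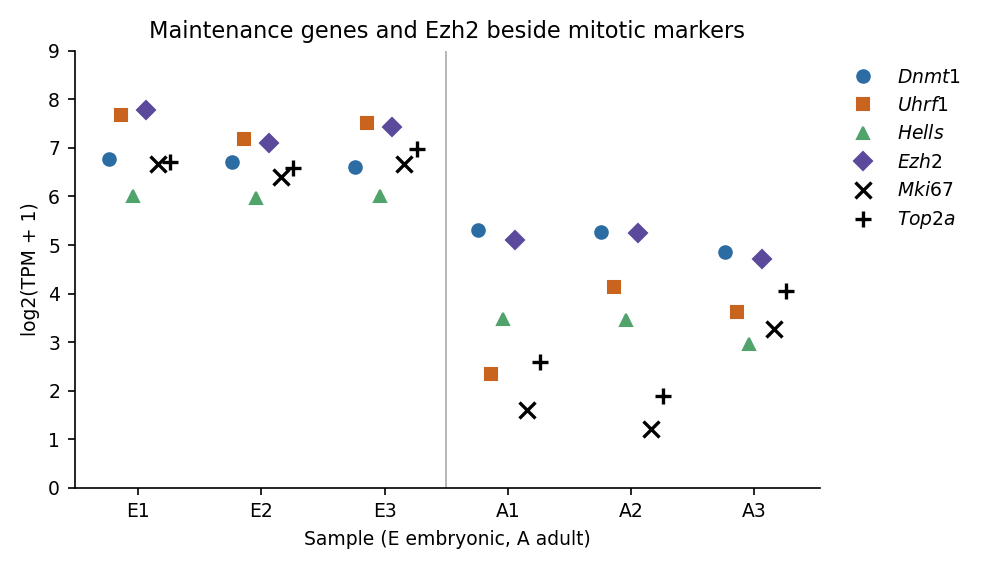
Level as log2(TPM + 1) of *Dnmt1*, *Uhrf1*, *Hells* and *Ezh2* (colored) and of *Mki67* and *Top2a* (black) in each sample, embryonic E1 to E3 left of the line and adult A1 to A3 right of it. *Mki67* and *Top2a* are higher in A3 than in A1 and A2, while *Dnmt1*, *Hells* and *Ezh2* are lowest in A3. The G1/S genes are not drawn.

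Of the de novo enzymes, *Dnmt3a* fell and *Dnmt3b* stayed at a low level in both stages. *Dnmt3a* (chr12:3806007-3914443, plus strand) had the highest level of the 10 genes at either stage. It was at 316, 240.3 and 267 TPM in embryonic cartilage against 107, 85.5 and 121 TPM in adult cartilage, without overlap between the stages. The log2 fold change was -1.39 (SE 0.167, limma adjusted p = 2.7e-04). An antisense gene, *Dnmt3aos*, shares 133 exonic bases with it, and without strand information the reads there cannot be told apart.

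*Dnmt3b* (chr2:153649450-153687730, plus strand) was at 6.55, 8.44 and 1.94 TPM in embryonic cartilage against 7.32, 4.53 and 7.42 TPM in adult cartilage. The stages overlapped, with the lowest and the highest value both embryonic (log2 fold change 0.30 with SE 0.504, adjusted p = 0.654 by limma), and without embryonic replicate 3 the log2 fold change turned to -0.21. It made up 2.05% ± 1.33 (SD, n = 3) of the *Dnmt3a* and *Dnmt3b* TPM in the embryonic samples and 5.74% ± 0.684 in the adult samples. The difference in log2(TPM + 1) between *Dnmt3b* and *Dnmt3a* moved from -5.53 ± 0.92 to -3.84 ± 0.13 (exact two-sided permutation test, p = 0.1, the smallest that 3 samples against 3 allow, and 0.15 adjusted over the 3 differences tested). Between *Dnmt1* and *Dnmt3a* the same difference was -1.40 ± 0.17 and -1.56 ± 0.47 (exact p = 0.9), so the ratio of maintenance to de novo enzyme changed by less than the spread between samples, and its change of -0.17 turned to 0.09 without adult replicate 3.

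*Dnmt3l*, the catalytically inactive partner of the de novo enzymes known from germ cells, was listed at 0 in every embryonic sample, while the adult samples held 0.92, 11.4 and 10.2 TPM. It passed the threshold (limma adjusted p = 0.0159), but not when embryonic replicate 2, adult replicate 2 or adult replicate 3 was left out (adjusted p = 0.0503, 0.0589 and 0.0502). The adult samples spread over more than a factor of 10, and the lowest was close to 0. No fold change can be given against a stage at 0.

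All 3 TET genes fell, *Tet1* close to the threshold. *Tet2* (chr3:133463679-133545139, minus strand) was at 135, 116 and 107 TPM in embryonic cartilage against 27.2, 36.4 and 56.3 TPM in adult cartilage (log2 fold change -1.61 with SE 0.252, adjusted p = 0.00111 by limma). An antisense gene, *Gm42567*, shares 43 exonic bases with it. The adult samples were the more scattered, but the highest of them was below every embryonic sample. *Tet3* (chr6:83362373-83459084, minus strand) was at 116, 81.6 and 102 TPM and at 35.7, 34.7 and 27.8 TPM (log2 fold change -1.58 with SE 0.19, adjusted p = 2.7e-04 by limma). *Tet1* (chr10:62804570-62908996, minus strand), the form best known from embryonic stem cells, was far lower throughout, at 8.17, 5.29 and 6.58 TPM and at 3.24, 1.72 and 1.97 TPM. Its log2 fold change was -1.23 (SE 0.404, limma adjusted p = 0.0356). With 1 sample left out in turn, *Tet1* kept its direction but passed the threshold only without adult replicate 1, the adjusted p in the other 5 fits lying between 0.0569 and 0.117.

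Together the TET genes summed to 260, 203 and 215 TPM in embryonic cartilage against 66.2, 72.8 and 86.1 TPM in adult cartilage, a ratio of means of 3.01. The make-up of this sum differed little between the stages. *Tet2* held 52.9% ± 3.91 (SD, n = 3) of it in the embryonic and 52.2% ± 12.3 in the adult samples, and *Tet3* 44.2% ± 3.67 and 44.7% ± 11.2. The 3 methyltransferase genes summed to 431, 352 and 365 TPM and to 153, 128 and 156 TPM, a ratio of 2.63. The summed transcripts of these methyltransferase genes and those of the TET genes were thus both lower in the adult samples.

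*Tdg*, the glycosylase that excises oxidized methylcytosine, was at 52.0, 61.3 and 58.9 TPM in embryonic and 54.0, 58.5 and 87.9 TPM in adult cartilage and did not pass (limma adjusted p = 0.489). Of 26 other genes of DNA methylation, 25 were tested, of which 6 were higher and 5 lower, close to the 45.3% called among all genes, and their median log2 fold change was -0.03. Beside *Dnmt3l*, the largest rises were those of *Zbtb38* and *Zbtb4*, which encode readers of methylated DNA. Not all readers rose. *Zbtb33* and *Mbd2*, named after their values were seen, were not called (log2 fold change -0.03 and -0.32, limma adjusted p = 0.94 and 0.0869). *Ogt*, which is not a reader and was also named afterwards, rose by 1.73 (limma adjusted p = 3.2e-04). *Zbtb38* was at 9.47, 13.6 and 9.40 TPM in embryonic cartilage against 51.8, 64.8 and 48.5 TPM in adult cartilage, and *Zbtb4* rose by 1.80 on the log2 scale (limma adjusted p = 1.4e-04 and 0.00118).

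The zinc finger genes *Cxxc5* and *Cxxc4*, whose products bind unmethylated CG, went down. *Cxxc5* was at 80.4, 60.6 and 52.1 TPM in embryonic and 15.6, 20.6 and 12.3 TPM in adult cartilage (log2 fold change -1.94, limma adjusted p = 4.2e-04). *Cxxc4* was at 2.26, 1.78 and 2.37 TPM and listed at 0 in all adult samples. *Zfp57*, which keeps methylation at imprinted regions, was at 37.4, 53.5 and 39.5 TPM and at 20.9, 12.2 and 10.2 TPM (log2 fold change -1.57, limma adjusted p = 0.00297).

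The EZH paralogs went opposite ways. *Ezh2* (chr6:47530139-47595341, minus strand) was at 219, 137 and 173 TPM in embryonic cartilage against 33.2, 37.2 and 25.1 TPM in adult cartilage. Every embryonic sample was above every adult one, with a log2 fold change of -2.42 (SE 0.217, adjusted p = 5.6e-05 by limma). The lincRNA *Gm26625* on the other strand shares 174 exonic bases with it. *Ezh1* (chr11:101191115-101226463, minus strand) was at 3.56, 5.83 and 3.03 TPM in embryonic cartilage against 36.5, 52.7 and 36.8 TPM in adult cartilage, a log2 fold change of 3.08 (SE 0.318, adjusted p = 1.2e-04 by limma). Only 1.58% of all tested genes rose as far. Adult replicate 2 had the highest *Ezh1* and the highest *Ezh2* of the adult samples.

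*Ezh2* made up 98.4%, 95.9% and 98.3% of the EZH TPM in embryonic cartilage, against 47.7%, 41.4% and 40.5% in adult cartilage. The difference in log2(TPM + 1) between *Ezh2* and *Ezh1* moved from 5.12 ± 0.69 (SD, n = 3) to -0.39 ± 0.22, with no overlap (exact two-sided permutation test, p = 0.1, the smallest possible here, 0.15 adjusted over 3). The rise of *Ezh1* did not make up for the fall of *Ezh2*. Their sum was 223, 142 and 176 TPM in embryonic cartilage against 69.8, 89.9 and 61.9 TPM in adult cartilage, a ratio of means of 2.44.

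**Figure D3:**
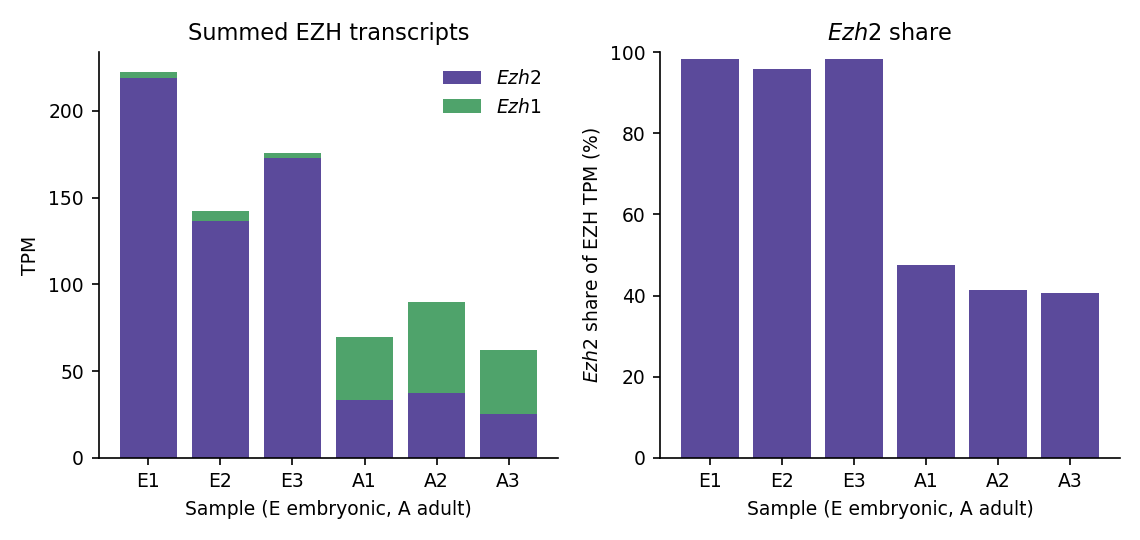
Left, TPM of *Ezh2* and *Ezh1* stacked in each sample; right, the percent of that sum held by *Ezh2*. In the embryonic samples E1 to E3 *Ezh2* holds 95.9% to 98.4%, and in the adult samples A1 to A3 40.5% to 47.7% of a smaller sum.

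Ordered by mean TPM, the embryonic samples ran from *Dnmt3a* (274 ± 38.3, SD, n = 3) through *Ezh2* (176 ± 41.3), *Uhrf1* (176 ± 29.9), *Tet2* (119 ± 14.7), *Dnmt1* (103 ± 6.10), *Tet3* (100.1 ± 17.5), *Hells* and *Tet1* (6.68 ± 1.45) to *Dnmt3b* (5.64 ± 3.34) and *Ezh1* (4.14 ± 1.49). Neighbours in this order overlapped in their sample values, except that *Dnmt3a* lay above *Ezh2*, *Uhrf1* above *Tet2*, *Tet3* above *Hells* and *Hells* above *Tet1*. In the adult samples *Dnmt3a* (104 ± 17.8) again came first. *Ezh1* (42.0 ± 9.26), last in the embryo, came next, followed by *Tet2* (40.0 ± 14.9), *Dnmt1* (34.7 ± 5.98), *Tet3* (32.8 ± 4.31) and *Ezh2* (31.8 ± 6.19), all of which overlapped their neighbours. *Uhrf1* (10.7 ± 6.25), *Hells* (9.01 ± 1.93) and *Dnmt3b* (6.42 ± 1.64) formed an overlapping lower group, and *Tet1* (2.31 ± 0.812) lay below it.

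Unlike the catalytic subunits, the core subunits *Eed* and *Suz12* did not pass the test, and whether their changes differed from those of the EZH genes was not tested. *Eed*, which binds the mark itself, was at 75.9, 85.6 and 81.6 TPM in embryonic and 61.9, 73.2 and 82.4 TPM in adult cartilage, and *Suz12*, the scaffold, at 31.1, 37.7 and 34.1 TPM and at 23.9, 29.4 and 19.7 TPM. Their adjusted p-values were above 0.05 (limma adjusted p = 0.416 and 0.0981), although that of *Suz12* was below it under median-of-ratios scaling (adjusted p = 0.0461). Of the 12 other PRC2 subunits, 3 were lower and 1 higher in adult cartilage, beside 45.3% called among all genes, and their median log2 fold change was -0.40. The histone chaperone *Rbbp7* was at 302, 291 and 258 TPM and at 151, 123 and 125 TPM (log2 fold change -1.09, limma adjusted p = 3.1e-04). *Mtf2* fell by 0.72 (limma adjusted p = 0.0206), a call lost in 4 of its alternatives, 3 of them fits that left out embryonic replicate 2 or 3 or adult replicate 2.

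The accessory subunits of the PHF family were unlike each other. *Phf19* was at 5.91, 10.8 and 6.94 TPM in embryonic cartilage against 0.902, 0.55 and 0 TPM in adult cartilage. *Phf1*, its paralog, went the other way, from 19.0, 9.17 and 22.6 TPM to 36.02, 64.6 and 60.6 TPM (log2 fold change 1.65, limma adjusted p = 0.00569).

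Polycomb repressive complex 1 (PRC1) ubiquitinates histone H2A and comes in canonical forms, which hold a CBX protein, and variant forms, which hold RYBP or YAF2 instead. Of 25 genes, 24 were tested, and 7 were higher and 4 lower in adult cartilage, a share of calls close to the 45.3% of all tested genes, and their median log2 fold change was -0.18. This balance depended on scaling and was 4 higher and 5 lower both with quantile normalization and with median-of-ratios scaling. *Cbx7* was at 0, 1.08 and 0 TPM in embryonic and 15.6, 17.3 and 4.99 TPM in adult cartilage. *Bmi1*, known for restraining the senescence locus *Cdkn2a*, was at 30.1, 27.03 and 35.7 TPM and at 67.8, 83.2 and 114 TPM (log2 fold change 1.46, limma adjusted p = 9.3e-04). *Pcgf1*, which marks a variant complex, rose by 1.38.

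Both alternatives to the CBX subunits fell. *Rybp* was at 282, 248 and 314 TPM in embryonic cartilage against 63.3, 83.1 and 74.2 TPM in adult cartilage (log2 fold change -1.92, limma adjusted p = 2.9e-05), and *Yaf2* fell by 1.66. *Bcor*, of the *Pcgf1* complex, was at 69.7, 53.3 and 65.8 TPM and at 19.7, 20.7 and 18.5 TPM (log2 fold change -1.62, limma adjusted p = 2.3e-04). *Rnf2*, the main ubiquitin ligase, was at 146, 156 and 156 TPM and at 53.6, 115 and 91.3 TPM (log2 fold change -0.88, limma adjusted p = 0.0194), and lost the threshold in 5 of its 16 alternatives, with an adjusted p of up to 0.0668. *Ring1*, the alternative ligase, named after its values were seen, was at 5.78, 6.05 and 10.6 TPM and at 12.2, 19.2 and 16.7 TPM, a rise of 1.03 on the log2 scale (limma adjusted p = 0.0383).

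Among the 6 genes that counter Polycomb, 2 were lower and 1 was higher, beside the same 45.3% over all genes. *Kdm6b*, an H3K27 demethylase, was at 456, 375 and 443 TPM in embryonic cartilage against 86.3, 113 and 116 TPM in adult cartilage, clearly apart (log2 fold change -2.01 with SE 0.153, adjusted p = 2.3e-05 by limma). The demethylase *Kdm6b* and the methyltransferase *Ezh2* therefore both fell at the transcript level. *Asxl3* was at 12.1, 8.96 and 12.1 TPM and at 0.00901, 0.0974 and 3.15 TPM, and *Asxl2* rose by 0.58 (limma adjusted p = 0.0411), a call lost in 10 of its 16 alternatives.

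The other demethylase, the X-linked *Kdm6a*, was at 33.1, 20.8 and 27.02 TPM in embryonic cartilage against 19.1, 17.2 and 13.4 TPM in adult cartilage (log2 fold change -0.66, limma adjusted p = 0.0689). It passed under quantile normalization (-0.82, adjusted p = 0.0328) and median-of-ratios scaling (-0.80, adjusted p = 0.0327). Its embryonic samples followed *Xist*, a transcript of female cells, which was at 207, 0.0164 and 78.5 TPM in the same order while adult cartilage held 0, 0 and 0.303 TPM. The X-linked *Bcor* was also lowest in embryonic replicate 2, while the X-linked *Rbbp7* was not. The order of the embryonic samples in *Kdm6a* was not particular to X-linked genes. The autosomal *Dnmt3a*, *Uhrf1*, *Tet1*, *Tet3* and *Ezh2* had the same order, while *Dnmt1*, *Dnmt3b*, *Hells*, *Tet2* and *Ezh1* did not. The Y-linked *Ddx3y* was at 0.138, 111 and 68.6 TPM in embryonic cartilage and at 54.9 to 81.1 TPM in adult cartilage, so sex was not balanced between the stages. Embryonic replicate 3 held both *Xist* and *Ddx3y*, so by these genes it was a mix of female and male cells. The part of sex in these values was not tested. The 10 enzymes and cofactors are autosomal.

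**Figure D4:**
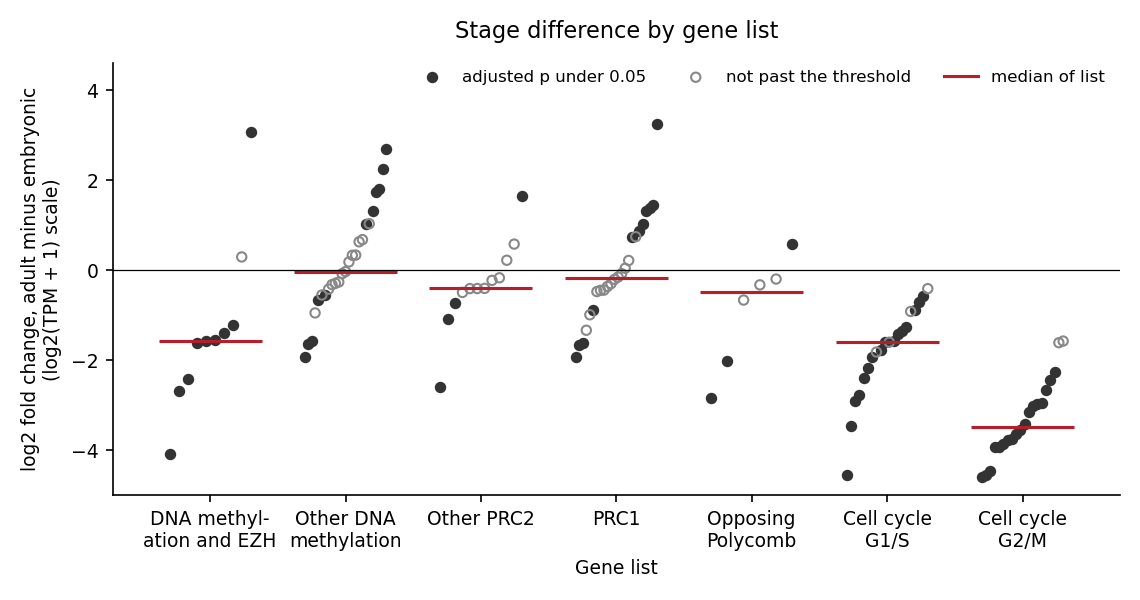
Log2 fold change (adult minus embryonic, log2(TPM + 1) scale) of each tested gene by list, filled where the limma adjusted p was under 0.05, with the median of each list as a line. The medians are -1.57 for the DNA methylation and EZH genes, -0.03 for other DNA methylation genes, -0.40 for other PRC2 subunits, -0.18 for PRC1 and -0.49 for genes opposing Polycomb, and they are lowest for the cell cycle lists at -1.60 and -3.49.

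Germline genes, known to be held silent in somatic cells by methylation of their promoters, were looked at as a readout near that pathway. Of 15 such genes, *Dazl*, *Mael* and *Stk31* among them, 10 were at 0 in all 6 samples and 14 were under 1 TPM in every sample. The highest single value was 1.05 TPM, for *Ddx4* in embryonic replicate 2. In the adult samples only *Taf7l* (0.542 TPM), *Ddx4* (0.183 TPM) and *Tex11* (0.13 TPM) were above 0, all in adult replicate 1. With a mean under 1 TPM, none was tested.

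Genes with the most similar profiles were sought by the root mean square difference of log2(TPM + 1) over the 6 samples after each gene's mean was removed. Nearest to *Ezh2* were *Igf2r*, *Grb10* and *Aunip* (0.117, 0.149 and 0.178 on the log2 scale), and among the other genes of the group *Hells* was nearest to it (0.237). *Ezh1* was nearest to *Dglucy*, *Cr1l* and *Srpx2* (0.162, 0.189 and 0.203). *Uhrf1* was nearest to *Marcksl1* (0.186), *Hells* to *Ephb3* (0.0519), *Dnmt1* to *Hmgcs1* (0.065) and *Dnmt3a* to *Setbp1* (0.0781). *Tet1* was nearest to *Ltbp1* (0.0442), *Tet2* to *Ptpn13* (0.0664) and *Tet3* to *Bcor* of PRC1 (0.0891). *Dnmt3b*, with no stage difference to match, was nearest to *Gm15417* (0.127). With 6 samples in 2 stages this measure mostly follows the size of the stage difference.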

How the data were processed

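RNA-seq of sorted mouse chondrocytes was read from 1 table of 22032 genes in 6 samples, 3 for each stage, and every column was used. The authors mapped the reads to GRCm38 with RefSeq annotations, estimated transcript levels with RSEM (version not given in the sources used here) and deposited log2(TPM + 1). Taken back to the linear scale, each sample sums to 1000000 TPM, so depth is unknown and no counting error can be given. Symbols came from GENCODE M21 for 21902 identifiers, and 130 had none. *Auts2* of the PRC1 list was not analysed here.

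The stage comparison was fitted by limma 3.58.1 (R 4.3.3, functions lmFit and eBayes, trended prior) to log2(TPM + 1), a pseudocount of 1 that understates changes of low genes, for the 13125 genes averaging 1 TPM or more. The fit held the stage alone, and p-values were adjusted over all tested genes by the Benjamini-Hochberg method at a threshold of 0.05. EBSeq, named in the methods, was not used. Differences between genes used exact permutation tests over samples (scipy 1.17.1). The members, lists and promoter motifs were chosen with earlier results of these data known. Named genes are the 10 members, the called genes with the 3 largest rises and falls of each list, others chosen by role, and the nearest profiles, apart from a few genes not reported here; *Xist*, markers and germline genes were added for context. Promoter windows are RefSeq's on GRCm38.p6, gene positions and exon overlaps GENCODE M21's, and transcripts were compared with BLAST+ 2.17.0 (at least 95% identity over 100 bases). Whether the libraries keep strand is not given in the sources used here. Figures were made with matplotlib 3.10.9.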

Additional observations from a re-analysis of the deposited data

How the results depend on the processing

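The fit across genes was repeated with log2(TPM + 0.1), with all expressed genes or only those averaging 5 TPM or more, on quantile-normalized values, on values scaled by median of ratios or by the total outside the 20 highest genes, with an untrended or a robust prior, with a replicate block, at the stricter adjusted p of 0.01, and leaving out each sample, and the differences between genes with the smaller pseudocount, the block and each sample left out. *Dnmt1*, *Dnmt3a*, *Uhrf1*, *Hells*, *Tet2*, *Tet3*, *Ezh1* and *Ezh2* kept their direction and their call under every one of these. *Tet1* kept its direction and lost its call under 8 of the 15 that tested it, no filter (adjusted p = 0.0569) among them. Over the 6 fits that left out a sample, 8 or 9 of the 10 genes passed, 4603 to 5550 of all genes, 9 to 11 of the other DNA methylation genes, 3 or 4 of the other PRC2 subunits, 7 to 11 of the PRC1 genes and 31 to 38 of the cell cycle genes. The PRC1 count of 7 was that without embryonic replicate 2. Under an adjusted p of 0.01, 3718 genes, 7 other DNA methylation genes and 6 PRC1 genes passed, which follows from the stricter threshold.

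Values that turned direction had not passed the threshold. Without embryonic replicate 3, the log2 fold change of *Dnmt3b* was -0.211 (up to 0.6306 over the 6 fits). Without adult replicate 3, that of *Tdg* was -0.0259 (up to 0.3207), and the stage difference in *Dnmt1* minus *Dnmt3a* was 0.0927 (from -0.3694). For *Ezh2* minus *Ezh1* this range was -5.90 to -5.27, and for *Dnmt3b* minus *Dnmt3a* 1.19 to 2.11. Same-numbered samples did not deviate together across all tested genes (r -0.00884, -0.0169 and -0.0223). Such a correlation cannot show a pairing that acts on few genes. With the replicate block 5430 genes and 8 of the 10 members passed, *Tet1* being lost (adjusted p = 0.059), and the exact test of *Ezh2* minus *Ezh1* over 3 pairs gave p = 0.25, the smallest it can give. TPM carries no depth, so a value near 0, as for *Dnmt3l*, *Cbx7* or *Phf19*, has no counting limit.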

Other observations

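Of 14 genes that supply the methyl donor or supply and use the TET cofactor 2-oxoglutarate, limma called 4 higher and 1 lower in adult cartilage at an adjusted p under 0.05, against 45.3% of all tested genes called, and their median log2 fold change was 0.22. The one that fell was *Idh2*, the mitochondrial isocitrate dehydrogenase that makes 2-oxoglutarate, at 163, 165 and 187 TPM in embryonic against 25.8, 7.86 and 13.3 TPM in adult cartilage (log2 fold change -3.52 with SE 0.348, adjusted p = 9.3e-05 by limma). Its embryonic values lay close together and far above all adult ones. *Idh1* and *Idh3a* of the same list, named after their values were seen, were not called. Their log2 fold changes were 0.57 and 0.15 (limma adjusted p = 0.132 and 0.636). *Ogdh*, which consumes 2-oxoglutarate in the citric acid cycle, rose by 0.90 (limma adjusted p = 0.00253). *D2hgdh*, which turns D-2-hydroxyglutarate, an inhibitor of TET enzymes, back into 2-oxoglutarate, was at 0.18, 1.21 and 0.84 TPM and at 11.9, 8.30 and 9.45 TPM (limma adjusted p = 0.00131). *Mtrr*, the reductase that keeps methionine synthase active, rose by 1.40, without overlap of the stages (limma adjusted p = 0.00801).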
